A study of Mus musculus with 6 samples.

Results

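The expression of 10 fat cell genes was followed in bone marrow that lacked nuclear myosin 1 and in wild-type marrow. They were taken by symbol from a named list, among the 46603 Ensembl genes counted. All 10 had an entry for every library, though Cidec and Plin1 had 0 counts in some. The list was divided into 6 genes whose main site of expression is the fat cell (Adipoq, Cfd, Car3, Cidec, Plin1 and Plin4) and 4 that other marrow cells also use (Fabp4, Pparg, Lpl and Cd36). The libraries came from 3 NM1 KO (knockout) mice and 3 NM1 WT (wild-type) mice, all C57/Bl6 and 8 months old, each library from the femurs and tibiae of a single animal. Nuclear myosin 1 is a nuclear form of the motor protein encoded by Myo1c, and the knockout was the only difference in treatment or genotype that the labels give. Muscle, connective tissue and the bone ends were removed before the marrow was spun out, and no cell type was sorted, so every value is an average over all cells that left the bone. In such bulk RNA, a change in the number of cells of a type and a change in RNA per cell cannot be told apart.

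Fat cells of the marrow arise from the same stromal lineage as the reticular cells and osteoblasts around them. Pparg encodes the nuclear receptor that drives fat cell formation, Lpl and Cd36 bring fatty acids to and into the cell, Fabp4 carries them inside it, and the perilipins and Cidec coat and enlarge the lipid droplet. Adipoq and Cfd encode the secreted adiponectin and adipsin. In mouse marrow Adipoq is also expressed by stromal precursors and leptin receptor-positive reticular cells that hold little lipid, so it marks a lineage rather than the lipid-filled cell alone.

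Library totals lay between 15145052 and 22618802 counts, and each NM1 KO library was deeper than each NM1 WT library. Levels are given as CPM, in which counts are scaled to a common library total with TMM factors, and 1 CPM stood for 14.7 to 23.0 counts. Myo1c, whose gene-level count adds up all isoforms and so does not check loss of the nuclear form, had 73.8, 59.1 and 59.7 CPM in knockout marrow and 89.8, 115 and 102 CPM in wild-type marrow (edgeR's quasi-likelihood test, adjusted p = 0.0516). Y-linked transcripts were present in NM1 KO 1, NM1 KO 2 and NM1 WT 2 and at 0 counts in the other libraries, so both genotypes held animals of both kinds, 2 of 3 against 1 of 3. Blood cell genes were abundant in every library, and 10 neutrophil markers summed to between 37179 and 47923 CPM in knockout marrow and between 47495 and 64490 CPM in wild-type marrow.

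With edgeR's quasi-likelihood test and a threshold of 0.05 on the adjusted p, 2 of the 10 fat cell genes rose in NM1 KO marrow and 0 fell, both of them fat-restricted: Car3 was 11.5-fold and Cfd 10.4-fold higher by mean CPM. Across all 15069 tested genes 0.591% rose and 0.186% fell at the same threshold. With DESeq2 6 of the 10 rose, where 2.8% of all genes given an adjusted p rose and 2.7% fell, and with limma-voom 1 did, Car3, where 0.153% of all genes rose. The other 7 tested genes all had positive log2 fold changes, between 0.44 and 5.09, that did not pass. Plin1 was too low to be tested.

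**Figure D1:**
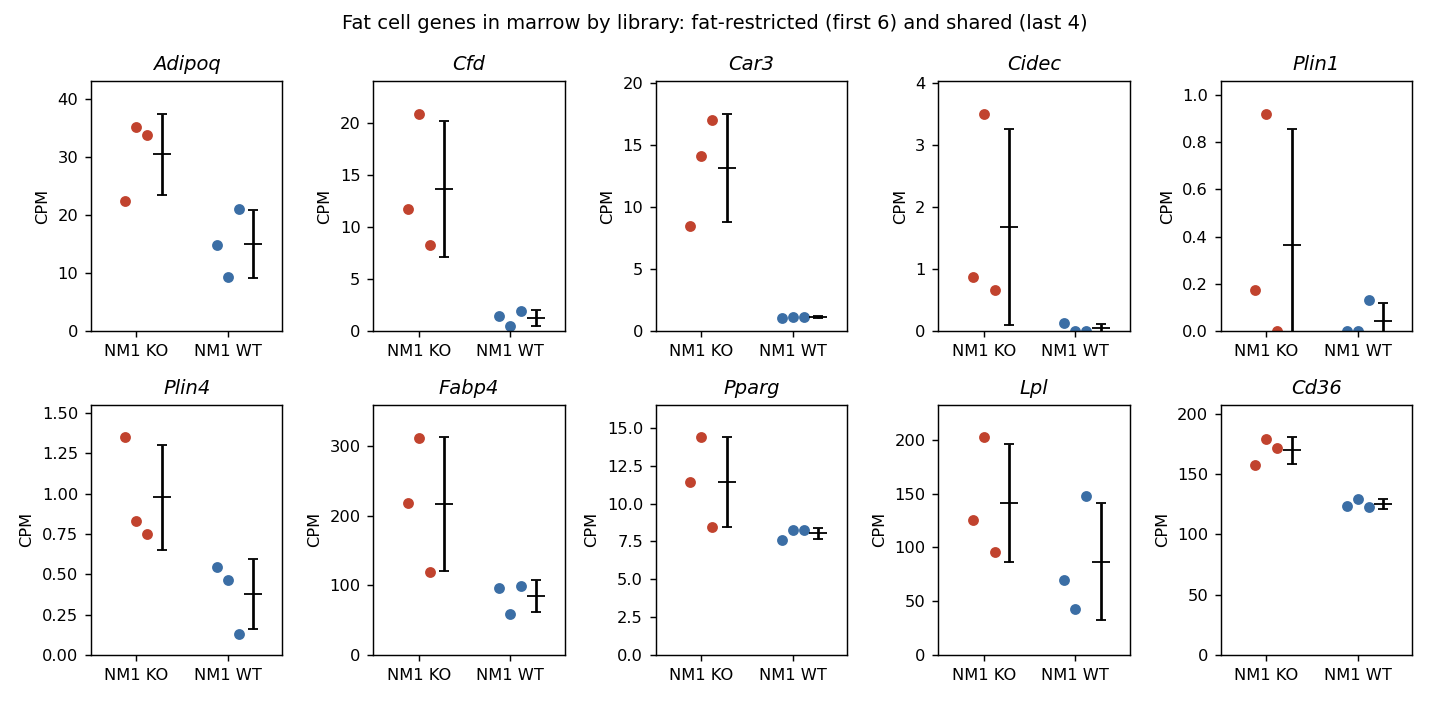
CPM of each fat cell gene in the 3 NM1 KO libraries (red) and the 3 NM1 WT libraries (blue), with the mean and SD beside each group and each panel on its own linear axis from 0. Car3 lies between 8.44 and 17.0 CPM in knockout marrow and between 1.09 and 1.18 CPM in wild-type marrow, while the groups overlap for Plin1 and Lpl.

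Car3 (ENSMUSG00000027559, chromosome 3, 14863512 to 14872523 on GRCm38, plus strand) encodes carbonic anhydrase 3, a cytosolic enzyme abundant in fat cells and also found in slow muscle fibres and liver. It had 194, 306 and 362 counts in NM1 KO 1 to 3, against 16, 20 and 18 counts in NM1 WT 1 to 3. Scaled, these are 8.44, 14.1 and 17.0 CPM in knockout marrow, against 1.09, 1.16 and 1.18 CPM in wild-type marrow. The lowest knockout mouse thus stood far above the highest wild-type mouse, and the 3 wild-type values lay close together. At 16, 20 and 18 counts, counting error limits what this closeness says of the spread between wild-type mice. The means were 13.2 ± 4.34 CPM in knockout marrow and 1.14 ± 0.0495 CPM in wild-type marrow (SD, n = 3 each), and the log2 fold change was 3.52 (SE 0.35, edgeR's quasi-likelihood test, adjusted p = 0.00112). Among all tested genes it ranked 5 by p and 10 by fitted fold change.

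Skeletal muscle genes moved with Car3, and their part in its rise was not tested. Of 14 skeletal muscle markers 9 were tested, and 4 of them rose (5 with DESeq2, 2 with limma-voom): Acta1, Tnnt3, Tnni2 and Mb, genes of the muscle contractile apparatus and of myoglobin. Their median was 2.35, the same with Mb, which had no counts in NM1 WT, set at its bound of 6 counts over the group, against 0.00 for all tested genes. Their summed level was 63.0 to 78.2 CPM in knockout marrow and 19.3 to 30.7 CPM in wild-type marrow. Mb had 40, 35 and 57 counts in the knockout mice and 0 in all wild-type mice. It was tested only because it was high in NM1 KO. Of the slow contractile isoforms in the list, Myh7, the slow myosin heavy chain, had 2, 4 and 0 counts in the knockout mice. In the wild-type mice Myh7 had 0, 0 and 10. Tnni1, the slow troponin I, had 2 counts in NM1 KO 1 and 0 elsewhere. Tnnc1, the troponin C of slow and heart muscle, was detected in every library, with 69, 30 and 22 counts in the knockout mice and 44, 42 and 50 in the wild-type mice. Scaled to CPM, the highest Tnnc1 value was that of NM1 WT 3, and the groups overlapped. Some fast isoforms in the list were low as well. Tnnc2 had 0 counts in all 6 libraries. Myh1 had 4, 0 and 2 counts in NM1 KO 1 to 3 and 0 in each NM1 WT library. Myh2 had 0, 6 and 8 counts in NM1 KO and 0, 0 and 4 in NM1 WT. Others were higher, such as Myh4, with 277, 127 and 186 counts in NM1 KO and 2, 10 and 62 in NM1 WT. The fibre type behind these counts was not tested.

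Cfd (ENSMUSG00000061780, chromosome 10, 79890853 to 79892655, plus strand) encodes adipsin, the serine protease complement factor D, which fat cells secrete and which macrophages can also make. It had 270, 454 and 176 counts in NM1 KO 1 to 3, against 22, 8 and 30 counts in NM1 WT 1 to 3. In CPM the values were 11.7, 20.9 and 8.25 in NM1 KO, against 1.49, 0.464 and 1.97 in NM1 WT. Both groups were spread out, but the lowest knockout value was still several times the highest wild-type value. The means were 13.6 ± 6.54 CPM in knockout marrow and 1.31 ± 0.769 CPM in wild-type marrow (SD, n = 3 each), and the log2 difference was 3.39 (SE 0.50, edgeR's quasi-likelihood test, adjusted p = 0.0151). With limma-voom Cfd no longer passed (log2 fold change 3.51, adjusted p = 0.0731), the upper end of a range over the alternatives that began at 1.03e-18. That lower end came from edgeR's quasi-likelihood test with no low-count filter, in which 1138 genes passed, against 117 in the reported fit.

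Adipoq (ENSMUSG00000022878, chromosome 16, 23146536 to 23158028, plus strand) encodes adiponectin, a hormone of fat cells that circulates in blood. Its levels were 22.5, 35.1 and 33.9 CPM in NM1 KO 1 to 3 and 14.8, 9.27 and 21.0 CPM in NM1 WT 1 to 3. The groups did not overlap, though NM1 KO 1 and NM1 WT 3 lay next to each other. With means of 30.5 ± 6.98 CPM in knockout marrow and 15.0 ± 5.89 CPM in wild-type marrow (SD, n = 3 each), the log2 fold change of 1.02 (SE 0.27) missed the threshold by the quasi-likelihood test of edgeR (adjusted p = 0.108). DESeq2 put Adipoq past the threshold (1.02, adjusted p = 0.00849), and over the alternatives its adjusted p ran from 2.27e-05 to 0.389. The lower end was again edgeR's quasi-likelihood test with no low-count filter.

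Cfd and Car3 were also set beside Adipoq within each library. The ratio of Cfd to Adipoq in CPM was 0.523, 0.595 and 0.244 in NM1 KO 1 to 3 and 0.101, 0.05 and 0.0935 in NM1 WT 1 to 3. For Car3 the ratio to Adipoq was 0.376, 0.401 and 0.501 in NM1 KO and 0.0734, 0.125 and 0.0561 in NM1 WT. Neither ratio overlapped between genotypes. Cfd and Car3 were the 2 genes that passed and had larger fold changes than Adipoq, so the ratios restate those changes. The share of other gene pairs with no overlap was not computed. The ratio of Fabp4 to Adipoq did overlap, with 9.71, 8.89 and 3.53 in NM1 KO and 6.50, 6.35 and 4.74 in NM1 WT.

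The start regions of Cfd and Adipoq are shown because these 2 genes encode the secreted products of the fat cell and differed in how far they moved. Promoter sequences of RefSeq on GRCm38.p6 were present for 7 of the 10 genes in the table used, and each window printed holds the 250 bases before the start site, on the plus strand, at chr10:79890603-79890852 for Cfd and chr16:23146286-23146535 for Adipoq. Capitals mark CANNTG in Cfd and CCAAT, or ATTGG on the other strand, in Adipoq, motifs read by E-box and CCAAT-box binding factors.
Cfd: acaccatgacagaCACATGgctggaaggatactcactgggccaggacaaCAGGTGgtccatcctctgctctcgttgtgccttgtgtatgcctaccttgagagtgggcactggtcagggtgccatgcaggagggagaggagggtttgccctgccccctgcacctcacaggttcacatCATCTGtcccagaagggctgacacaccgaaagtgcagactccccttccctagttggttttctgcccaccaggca
Adipoq: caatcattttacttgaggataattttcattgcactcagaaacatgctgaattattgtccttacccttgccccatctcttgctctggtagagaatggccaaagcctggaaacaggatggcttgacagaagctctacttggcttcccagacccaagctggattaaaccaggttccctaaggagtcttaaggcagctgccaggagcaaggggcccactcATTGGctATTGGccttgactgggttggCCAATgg
The Cfd window held CANNTG at -237, -201 and -74 from the start site and no CCAAT. In Adipoq CCAAT lay at -34, -27 and -7 and CANNTG at -61, with no overlap between them. Searched on both strands of all 32851 windows of this length, CCAAT occurred in 33.8% (3 or more times in 2.79%) and CANNTG in 66.2% (3 or more times in 12.2%). The full direct repeat of AGGTCA with 1 base between the copies, to which PPAR gamma binds with its RXR partner, occurred in 0.0335% of all windows and in 0 of the 10 windows that the table holds for these 7 genes, some of which have several start sites. The single copy AGGTCA occurred in 14.0% of all windows and in 3 of those 10. A window without a match says nothing of sites elsewhere in the gene.

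The lipid droplet genes of the fat-restricted group were close to the detection limit. Cidec (chromosome 6, 113424634 to 113435760, minus strand) encodes a protein that fuses lipid droplets into the large droplet of white fat cells. It had 20, 76 and 14 counts in NM1 KO 1 to 3, against 2, 0 and 0 counts in NM1 WT 1 to 3. All knockout mice were above all wild-type mice, but NM1 KO 2 alone held 69.1% of the knockout counts, and the gene passed the low-count filter only through NM1 KO. Counted as read pairs, 55 against 1, the ratio per depth was 39.4 with an exact 95% interval of 6.77 to 1582 that covers counting error only, and the fitted log2 fold change, 5.09 (SE 1.17), missed the threshold by the quasi-likelihood test of edgeR (adjusted p = 0.0743). Over its 13 alternatives the adjusted p ran from 5.42e-05 to 0.389, and 2 of them, DESeq2 and no low-count filter, put it past the threshold.

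Plin1 (chromosome 7, 79720218 to 79732903, minus strand) encodes perilipin 1, the droplet coat protein on which hormone-driven lipolysis acts in fat cells. It had 4, 20 and 0 counts in NM1 KO 1 to 3, against 0, 0 and 2 counts in NM1 WT 1 to 3. NM1 KO 2 was the only library with more than 4 counts, and the groups overlapped at 0. As read pairs, 12 against 1, the ratio was 8.59 with an exact 95% counting interval of 1.27 to 367, and the gene was below the filter and was not tested.

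Plin4 (chromosome 17, 56100591 to 56109803, minus strand), a perilipin of small nascent droplets that heart and skeletal muscle also express, had 31, 18 and 16 counts in NM1 KO 1 to 3, against 8, 8 and 2 counts in NM1 WT 1 to 3. The groups did not overlap in CPM, at 0.750 to 1.35 in NM1 KO and 0.131 to 0.543 in NM1 WT. The log2 fold change was 1.35 (SE 0.73), with an adjusted p of 0.379 in edgeR's quasi-likelihood test. In the annotation 17 exon bases of Plin4 are shared with Hdgfl2 on the opposite strand, and the strand setting of the counting is not given in the sources used here.

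Summed, the 6 fat-restricted genes reached 45.0, 75.4 and 60.5 CPM in NM1 KO 1 to 3 and 18.1, 11.4 and 24.5 CPM in NM1 WT 1 to 3, with no overlap. Adipoq made up the larger part of the sum in NM1 WT. All 5 that were tested were higher in every NM1 KO library than in any NM1 WT library, a pattern that 10.8% of all tested genes showed (9.75% were lower in every NM1 KO library), but Plin1 overlapped, and the minimum of 0.517 CPM that the low-count filter asked of 3 libraries was reached by Cidec in 0 and by Plin4 in 1 of the 3 NM1 WT libraries. Both were therefore tested only because they were high in NM1 KO, and Cidec, with 0 NM1 WT libraries at the minimum, was bound to be higher there. Cfd reached the minimum in 3 NM1 KO and 2 NM1 WT libraries, so it too needed NM1 KO to be tested. With these limits, the median log2 fold change of the 5 was 3.39, against 0.00 over all tested genes.

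As a sum, the 4 genes shared with other marrow cells were more abundant than the fat-restricted genes, and their median log2 fold change was lower. This did not hold gene by gene. Mean Pparg was below Adipoq in both genotypes, and below Cfd and Car3 in knockout marrow. Fabp4, with a log2 fold change of 1.35, moved more than Adipoq (1.02) and about as much as Plin4. None of the 4 passed in edgeR's quasi-likelihood test, in which 0.776% of all tested genes passed in either direction. An unadjusted p under 0.05 was reached by 2 of the 4 and by 16.8% of all tested genes. DESeq2 passed the same 2, Fabp4 and Cd36, and limma-voom passed 0. Their median was 0.60, with values of 0.44 to 1.35. Summed they stood at 513, 708 and 395 CPM in NM1 KO 1 to 3 and at 297, 240 and 379 CPM in NM1 WT 1 to 3, so that NM1 KO 3 and NM1 WT 3 nearly met.

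Fabp4 (ENSMUSG00000062515, chromosome 3, 10204088 to 10208576, minus strand) encodes the fatty acid binding protein of fat cells, capillary endothelium and macrophages. It had 218, 312 and 120 CPM in NM1 KO 1 to 3 and 96.2, 58.9 and 99.7 CPM in NM1 WT 1 to 3. The knockout mice differed more among themselves than the wild-type mice did, and NM1 KO 3 lay just above the wild-type range. Means were 217 ± 96.4 CPM in knockout marrow and 85.0 ± 22.6 CPM in wild-type marrow (SD, n = 3 each), and the log2 fold change of 1.35 (SE 0.30) had an adjusted p of 0.0565 in edgeR's quasi-likelihood test. Without NM1 KO 3 it passed (1.64, adjusted p = 0.00972), and without NM1 KO 2 the log2 fold change was 0.99 (adjusted p = 0.225), with a range of adjusted p over the alternatives from 1.85e-17 to 0.225. The lower end came from the fit with no low-count filter, in which the SE was 0.15.

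Lpl (chromosome 8, 68880491 to 68907448, plus strand) encodes lipoprotein lipase, which frees fatty acids from lipoproteins at the vessel wall and which macrophages and reticular stroma make as well. It had 126, 202 and 95.7 CPM in NM1 KO 1 to 3 and 69.6, 42.8 and 148 CPM in NM1 WT 1 to 3. NM1 WT 3 lay above 2 of the 3 knockout mice. The log2 fold change was 0.70 (SE 0.38), with an adjusted p of 0.372 in edgeR's quasi-likelihood test, and without NM1 WT 3 it was 1.32. Over the alternatives the adjusted p ran from 0.000102 to 0.830. The lower end came from the fit with no low-count filter, the only alternative in which Lpl passed. The SE of Lpl was 0.15 in that fit.

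Cd36 (chromosome 5, 17781690 to 17888801, minus strand) encodes a fatty acid translocase and scavenger receptor that platelets, macrophages, endothelium and red cell precursors carry too. It was the steadiest of the 10 genes, with 158, 179 and 171 CPM in NM1 KO 1 to 3 and 123, 130 and 123 CPM in NM1 WT 1 to 3. The groups stood clearly apart at 170 ± 10.8 CPM in knockout marrow and 125 ± 3.88 CPM in wild-type marrow (SD, n = 3 each), but the shift was small, 0.44 on the log2 scale (SE 0.12), and did not pass by the quasi-likelihood test of edgeR (adjusted p = 0.107). DESeq2 put it past the threshold (0.43, adjusted p = 0.0269), and over the alternatives its adjusted p ran from 0.0269 to 0.403.

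Pparg (chromosome 6, 115360951 to 115490399, plus strand), the master receptor of fat cell formation, is also expressed by macrophages and osteoclast precursors. It had 11.4, 14.4 and 8.44 CPM in NM1 KO 1 to 3 and 7.60, 8.23 and 8.26 CPM in NM1 WT 1 to 3. NM1 KO 3 was only slightly above the wild-type mice. The log2 fold change was 0.51 (SE 0.25), with an adjusted p of 0.340 in edgeR's quasi-likelihood test.

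Transcript length was used to order the genes by level, as CPM per kilobase of the longest principal transcript in GENCODE M21. In NM1 KO the order was Fabp4 at 242 ± 108, Cd36 at 49.9 ± 3.19, Lpl at 34.3 ± 13.4, Adipoq at 23.6 ± 5.41, Cfd at 14.8 ± 7.09, Car3 at 7.84 ± 2.59, Pparg at 6.45 ± 1.68, Cidec at 0.974 ± 0.921, Plin4 at 0.170 ± 0.0565 and Plin1 at 0.130 ± 0.174 CPM per kilobase (SD, n = 3). Neighbours from Cd36 through Pparg overlapped in their ranges, as did Plin4 and Plin1. In NM1 WT, Fabp4 at 94.8 ± 25.3 was again followed by Cd36 at 36.8 ± 1.14, Lpl at 21.1 ± 13.3 and Adipoq at 11.6 ± 4.56, but then came Pparg at 4.54 ± 0.211, Cfd at 1.42 ± 0.834 and Car3 at 0.680 ± 0.0295 CPM per kilobase (SD, n = 3). Pparg therefore stood above Cfd and Car3 with no overlap in wild-type marrow, and below or level with them in knockout marrow.

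NM1 KO 2 had the highest CPM of all 6 libraries for 8 of the 10 fat cell genes, with Plin4 highest in NM1 KO 1 and Car3 in NM1 KO 3. No NM1 WT library was the highest for any of the 10.

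**Figure D2:**
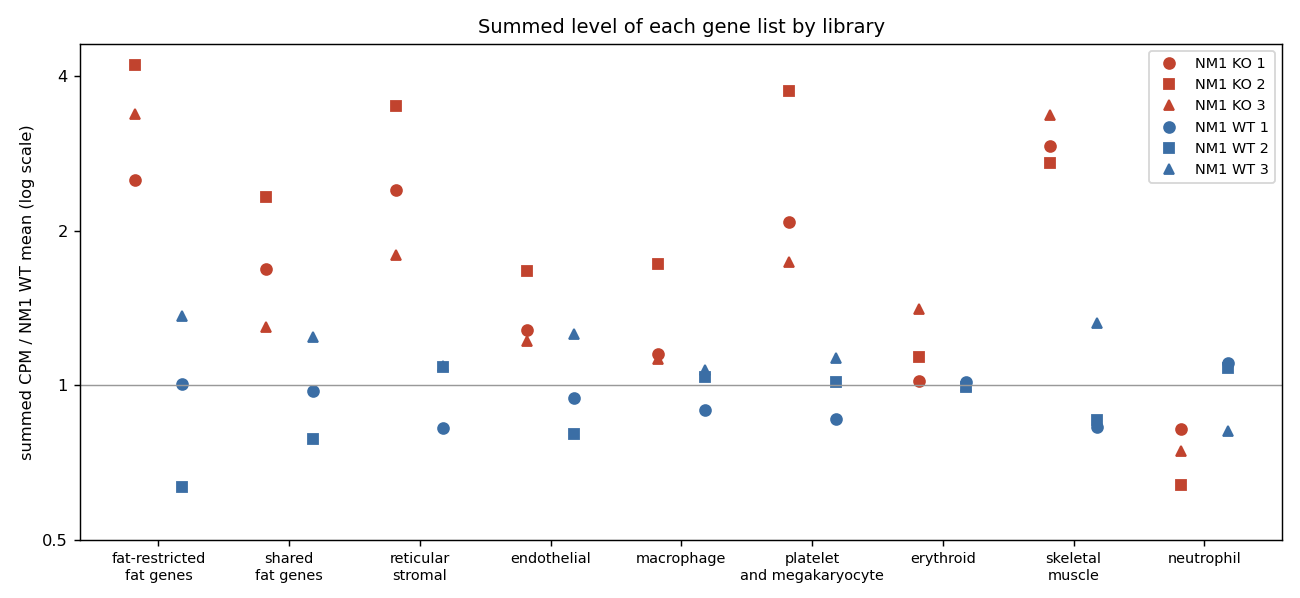
Summed CPM of each gene list in every library divided by that list's NM1 WT mean, on a log axis, with NM1 KO in red left of NM1 WT in blue and 1 symbol per replicate number. NM1 KO 2 is the highest library for the fat-restricted, shared, reticular stromal, endothelial, macrophage and platelet lists, and NM1 KO 3 for the erythroid and muscle lists.

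Among markers of other marrow cells that use these genes, some passed the threshold in the reticular, macrophage and platelet lists. In the macrophage list only 1 did. The part of these cells in the values of Fabp4, Lpl, Cd36, Pparg and Adipoq was not tested. Of 12 reticular stromal markers 4 rose (6 with DESeq2, 1 with limma-voom), among them Cxcl12, the niche chemokine, with 1040 ± 332 CPM in knockout marrow and 393 ± 64.8 CPM in wild-type marrow (SD, n = 3 each), and Lepr, the leptin receptor, with a log2 fold change of 1.26. Kitl and Vcam1 were the others, the median was 1.05, and the summed level was 1079 to 2105 CPM in knockout marrow against 496 to 654 CPM in wild-type marrow. These stromal cells are a source of Adipoq and Lpl in mouse marrow.

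Of 12 macrophage markers 1 rose (5 with DESeq2, 0 with limma-voom), Mrc1, the mannose receptor, with 60.7, 109 and 50.4 CPM in knockout marrow and 18.7, 30.2 and 31.0 CPM in wild-type marrow, and the median was 0.59 (summed 648 to 992 CPM in NM1 KO, 517 to 617 CPM in NM1 WT). The macrophage markers did not move as one, with 9 positive and 3 negative log2 fold changes. The negative ones were Marco at -0.94, Csf1r at -0.39 and Cd68 at -0.09, and Adgre1 was at 0.04. None of 12 endothelial markers passed in edgeR's quasi-likelihood test (5 at an unadjusted p under 0.05, 4 with DESeq2, 0 with limma-voom), although all 12 had positive log2 fold changes, with a median of 0.75. The smallest p belonged to Tie1 (0.73, adjusted p = 0.0947) and Tek (1.44, adjusted p = 0.119), both receptors of the vessel lining, and the summed level overlapped, at 203 to 278 CPM in knockout marrow and 134 to 209 CPM in wild-type marrow.

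Of 12 markers of platelets and megakaryocytes, which carry Cd36, 9 rose (11 with DESeq2, 3 with limma-voom), among them Pf4 and Ppbp, chemokines of the platelet granules, with a median of 1.25 and a summed level of 2129 to 4585 CPM in knockout marrow and 1052 to 1384 CPM in wild-type marrow. None of 9 erythroid markers passed in edgeR's quasi-likelihood test (6 at an unadjusted p under 0.05, 1 with DESeq2, 0 with limma-voom), with a median of 0.34 and sums of 6581 to 9078 CPM in knockout marrow and 6407 to 6535 CPM in wild-type marrow. The osteoclast markers, of cells that use Pparg, had a median of 0.66, and 0 of 6 passed in edgeR's quasi-likelihood test (4 at an unadjusted p under 0.05, 3 of them higher; 1 higher and 1 lower with DESeq2; 0 with limma-voom). Ctsk (cathepsin K) was nearest, at 2.08 (adjusted p = 0.0657), with 25.9, 103 and 23.3 CPM in the knockout mice and 11.8, 12.5 and 11.7 CPM in the wild-type mice, so that NM1 KO 2 stood apart. Mmp9, a matrix metalloproteinase that neutrophils also make, was at -0.65 (adjusted p = 0.1504). The summed level overlapped, at 902 to 1126 CPM in knockout marrow and 1046 to 1557 CPM in wild-type marrow. Neutrophil markers had 0 of 10 past the threshold (5 at an unadjusted p under 0.05, 2 lower with DESeq2, 0 with limma-voom), at a median of -0.43.

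The number of markers that rose depended on single libraries. Without NM1 WT 1 it was 0 for the reticular, macrophage, platelet and muscle lists alike. Without NM1 KO 2 it was 1 for the reticular, 0 for the macrophage and 4 for the platelet list, and without NM1 WT 3 it was 1, 0 and 1 in the same order. The macrophage list had 3 without NM1 KO 3, and the muscle list had 2 without NM1 KO 1 and 2 without NM1 KO 3.

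Few genes of the wider fat cell programme passed. Among 78 further genes of fat hormones, lipid droplets, adipogenic transcription, uptake, lipid synthesis and thermogenesis, 64 were tested in edgeR's quasi-likelihood test, 0 rose and 1 fell, Fasn. At an unadjusted p under 0.05 there were 17 of the 64, beside the 16.8% of all tested genes, with DESeq2 2 rose and 5 fell, and with limma-voom 0 passed.

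**Figure D3:**
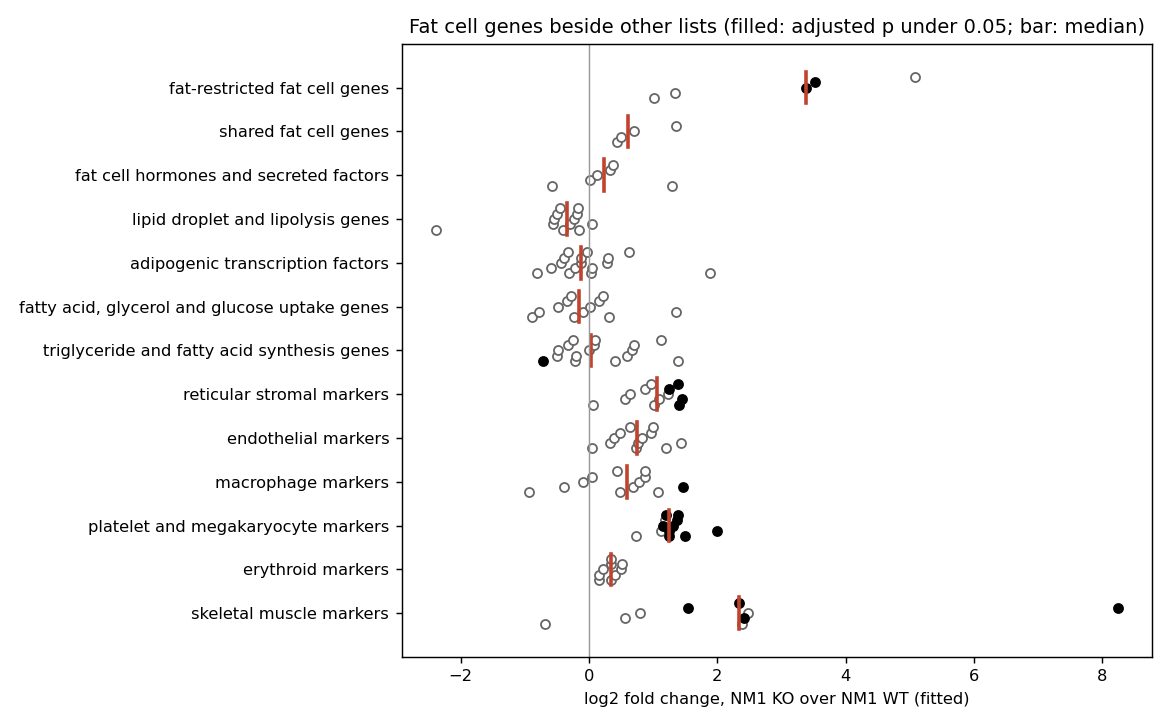
Fitted log2 fold change, NM1 KO over NM1 WT, of each tested gene (points, filled where adjusted p is under 0.05) and the median (red bar) in the fat cell gene groups, the wider fat cell lists and the lists of other cells. The fat-restricted median lies at 3.39 while the wider fat lists drawn here lie between -0.35 and 0.23 (the thermogenic list, with 2 tested genes and a median of 0.88, is not drawn), and the point at 8.25 is Mb, a fitted value of a gene with no counts in NM1 WT. Among the fat-restricted genes, Cidec and Plin4 were tested only because they were high in NM1 KO, and Cfd too needed NM1 KO to be tested.

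Among 8 hormones and secreted factors, 0 of 6 tested passed in edgeR's quasi-likelihood test (1 at an unadjusted p under 0.05, 1 with DESeq2, 0 with limma-voom), with a median of 0.23. Lep, the leptin gene of mature fat cells, had 0 counts in all 6 libraries, where a count of 0 allows up to 6 counts, or 3 read pairs, over a genotype. Angptl4, a secreted inhibitor of lipoprotein lipase and a target of PPAR receptors, had 11.6, 20.9 and 10.03 CPM in knockout marrow and 3.80, 7.53 and 6.03 CPM in wild-type marrow. Its groups did not overlap, and its log2 fold change of 1.29 (SE 0.34) had an adjusted p of 0.102. Retn, which encodes resistin, was near 1 CPM, with a log2 fold change of -0.57, and passed the low-count filter only through NM1 WT.

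Lipid droplet and lipolysis genes other than the members had negative log2 fold changes for 11 of 12 tested genes, with a median of -0.35 and 0 passing in edgeR's quasi-likelihood test (5 at an unadjusted p under 0.05, 3 lower with DESeq2, 0 with limma-voom). Plin3, the perilipin found in most cell types, had 73.1, 56.1 and 66.2 CPM in knockout marrow and 90.5, 99.0 and 95.9 CPM in wild-type marrow (log2 fold change -0.55, SE 0.13, adjusted p = 0.0848). Plin5, the perilipin of oxidative tissues, had a log2 difference of -2.38 (SE 0.67, adjusted p = 0.120), with 4, 6 and 8 counts in NM1 KO and 28, 18 and 22 counts in NM1 WT. Every NM1 KO library lay under the filter minimum of 0.517 CPM, so Plin5 was tested only because it was higher in NM1 WT.

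Of 16 tested adipogenic transcription factors 0 passed in edgeR's quasi-likelihood test (3 at an unadjusted p under 0.05, 0 with DESeq2 or limma-voom), with a median of -0.13. Klf15, a factor that raises fat and glucose uptake genes late in fat cell formation, stood 1.89 higher in log2 terms (SE 0.72, adjusted p = 0.213), with 20, 54 and 32 counts in NM1 KO and 12, 4 and 4 counts in NM1 WT. Klf15 passed the low-count filter only through NM1 KO. Klf5, which acts early, had -0.59 (adjusted p = 0.269). Of 12 uptake genes 0 passed (2 at an unadjusted p under 0.05, 0 with DESeq2 or limma-voom), with a median of -0.16. Gpihbp1, the endothelial anchor that holds lipoprotein lipase on capillaries, stood at a log2 difference of 1.35 (SE 0.52, adjusted p = 0.214), and Acsl4, an acyl-CoA synthetase, 0.31 (adjusted p = 0.292).

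Lipid synthesis genes had a median of 0.04 over 16 tested. Fasn, fatty acid synthase, fell to 50.3, 42.9 and 49.8 CPM in knockout marrow, against 89.7, 71.6 and 74.9 CPM in wild-type marrow, with no overlap (log2 fold change -0.72, SE 0.14, edgeR's quasi-likelihood test, adjusted p = 0.0396). It no longer passed in 7 of 15 alternatives, namely limma-voom, the Y-linked covariate and the fits without NM1 KO 1, NM1 KO 2, NM1 KO 3, NM1 WT 1 or NM1 WT 3, with an adjusted p of 0.000423 to 0.216 over all 15. The lower end came from the fit with no low-count filter. Gpd1, the glycerol phosphate dehydrogenase that feeds triglyceride synthesis, moved in the other direction without passing, at 10.97, 20.5 and 11.7 CPM in knockout marrow and 2.99, 7.65 and 5.77 CPM in wild-type marrow (1.39, SE 0.36, adjusted p = 0.0974). Of the thermogenic genes 2 of 5 were tested and 0 passed (1 at an unadjusted p under 0.05, 0 with DESeq2 or limma-voom), Cox7a1 at 2.29 (adjusted p = 0.250) and Dio2 at -0.52 (adjusted p = 0.365), and Ucp1, the uncoupling protein of brown fat, had at most 2 counts in any library. Cox7a1, with 4, 6 and 0 counts in NM1 WT, passed the low-count filter only through NM1 KO. Cox8b, a cytochrome oxidase subunit of heart, muscle and brown fat, was below the filter, with 6, 20 and 24 counts in the knockout mice and 0 in all 3 wild-type mice.

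The tested genes whose profile over the 6 libraries was nearest to the mean profile of the 5 tested fat-restricted genes were Il13ra2, Phex, Col1a2, Fmo2 and Kcnj9. Likeness was measured as the root mean square difference of log2 CPM after each profile was centred on its own mean, over 6 libraries, and was 0.20 for Il13ra2, an IL-13 receptor chain, and 0.31, 0.33, 0.34 and 0.34 for Phex, a peptidase of osteocytes, Col1a2, a type I collagen chain, Fmo2, a flavin monooxygenase, and Kcnj9, a potassium channel subunit. The 5 fat-restricted genes lay at 0.59 (Car3) to 0.87 (Plin4) from this mean, of which they are part, so some closeness is built in. The shared genes lay at 0.66 (Fabp4), 0.96 (Lpl), 1.04 (Pparg) and 1.06 (Cd36), and the median tested gene at 1.30. Il13ra2 had 42, 56 and 28 counts in NM1 KO and 6, 2 and 4 counts in NM1 WT. Col1a2 had 144, 237 and 157 CPM in knockout marrow and 37.8, 40.6 and 49.2 CPM in wild-type marrow, and NM1 KO 2 was highest for all 5. Kcnj9 had 13, 24 and 14 counts in the knockout mice and 0 in all 3 wild-type mice. Il13ra2 and Kcnj9, like Cidec and Plin4 within the mean profile, passed the low-count filter only through NM1 KO. Phex, like Cfd, reached the filter minimum in 3 NM1 KO and 2 NM1 WT libraries, so both too needed NM1 KO to be tested. Part of this likeness is therefore set by the filter.

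**Figure D4:**
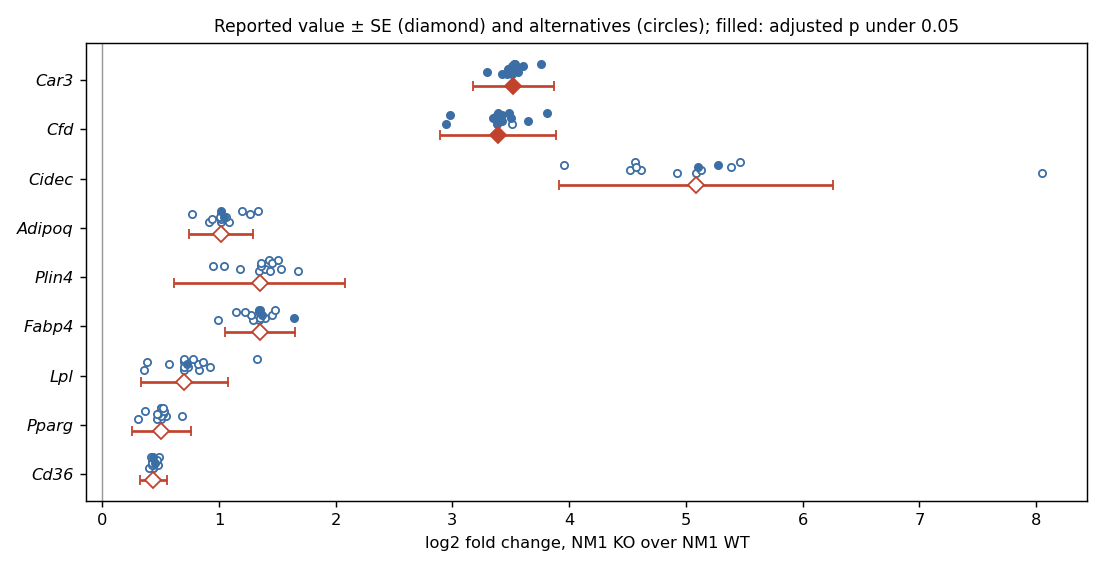
Fitted log2 fold change, NM1 KO over NM1 WT, with its SE (diamonds) and the value under each alternative (circles) for the 9 tested fat cell genes, filled where adjusted p is under 0.05. Car3 is filled throughout, and no value drawn lies below 0; the split by Y-linked transcripts, under which Lpl is at -0.084 among libraries lacking them, is not drawn.

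Among the 15 alternatives to scaling, filter, test, covariates and samples, Car3 stayed past the threshold in all 15 (log2 fold change 3.29 to 3.75) and Cfd in 14 (2.94 to 3.81). Split by Y-linked transcripts, the difference in mean log2(CPM + 0.5) of Car3 was 2.78 with them (2 NM1 KO, 1 NM1 WT) and 3.42 without (1 NM1 KO, 2 NM1 WT), and that of Cfd was 4.07 and 1.98. For Adipoq it was 1.55 with and 0.92 without. Cfd, Fabp4 and Lpl differed more between the 2 kinds of libraries than Car3 and Adipoq did. Fabp4 was at 2.14 with and 0.29 without, and Lpl at 1.88 with and -0.084 without. The difference between the 2 kinds of libraries was not tested.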

How the data were processed

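The authors deposited raw read counts per Ensembl gene for 6 libraries, with no normalisation, and column 2 of each file was used as counts. The submitters' processing notes list, without order, HTSeq, HISAT2 2.0.4, FastQC, SAMtools 0.1.19 and Trimmomatic 0.36, with the builds GRCm38 and mm10; no source used here gives the annotation release or strand setting. Low counts were nearly all even (NM1 KO 1 held 2417 genes at 2 counts and 6 genes at 1), so both mates of a pair appear to be counted, and floors and counting ratios use read pairs.

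Of 46603 genes, 46091 matched GENCODE M21, which gave symbols, positions and transcript lengths. Genes were kept by filterByExpr (15069 genes, 99.89% of counts), scaled by TMM and tested with edgeR 4.0.16 (R 4.3.3), quasi-likelihood test, genotype as the only term, Benjamini-Hochberg adjustment over all tested genes and a threshold of 0.05. Alternatives used DESeq2 1.42.0 and limma 3.58.1. In simulated counts with 14679 tested genes, 47 of 100 genes changed 2-fold and 75 of 100 changed 4-fold were recovered, with 10 false calls among 132. Each library is 1 mouse, so p-values set the genotype difference against the spread between mice. That spread was estimated from 3 mice per genotype, with information shared across genes. The fat cell genes, their division and all lists were chosen with earlier results of these data known. The text names all 10 fat cell genes, Myo1c, and from each other list the genes past the threshold or otherwise the 2 of smallest p, plus the 5 nearest profiles, except that platelet genes are named only by example. Further genes were chosen after their values were seen: Lep, Ucp1, Cox8b, Mmp9, Myh1, Myh2, Myh4, Myh7, Tnni1, Tnnc1, Tnnc2, Csf1r, Marco, Cd68 and Adgre1. Intervals and floors cover counting error only.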

Additional observations from a re-analysis of the deposited data

How the results depend on the processing

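Of the 10 fat cell genes, 2 passed in the reported fit, 7 with no low-count filter, 6 with DESeq2, 1 with limma-voom and 2 to 3 when any single library was left out. The median log2 fold change of the fat-restricted genes was 3.39, ranged from 2.94 to 3.54 over the fits without a single library, and was lowest without NM1 KO 2 (2.94) and without NM1 WT 2 (2.98). Of these genes, Cidec and Plin4 were tested only because they were high in NM1 KO, and Cfd too needed NM1 KO. With counts halved to read pairs, Cidec and Plin4 were not tested, and the median over the remaining 3 genes was 3.39. The median of the shared genes was 0.60 and ranged from 0.38 to 0.92 over all 15 alternatives. Over all genes 117 passed in the reported fit, 1138 with no low-count filter, 794 with DESeq2, 37 with limma-voom, 60 when Y-linked state entered as covariate, and 26 to 344 without a single library (leaving out NM1 KO 2 gave 40 and NM1 KO 3 gave 177; leaving out NM1 WT 1 gave 26, NM1 WT 2 gave 344 and NM1 WT 3 gave 30), and the cause was not tested. Of the reported calls 89 rose and 28 fell, against 404 and 390 with DESeq2, 621 and 517 with no low-count filter and 138 and 206 without NM1 WT 2. With the replicate number as a replicate block 421 genes passed and the number of fat cell genes stayed at 2; deviations of same-numbered libraries correlated at 0.06, 0.12 and 0.06, so the numbers were not taken to pair the mice. Among the libraries lacking Y-linked transcripts the difference of Lpl was -0.0844, an alternative chosen after seeing the data, against 0.70 in the reported fit. Scaling moved the median of all genes to 0.04 at most. Cidec and Plin1 were limited by depth, at 2 counts each over the 3 NM1 WT libraries.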
